A study of Mus musculus with 8 samples.

Results

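The T cell receptor chain probes are the gene probes on a mouse expression array whose description names the alpha, beta, gamma or delta chain of the T cell receptor together with a constant region, a variable or joining segment, or a whole chain. CD3 subunits were left out. This rule gave 115 of the 56605 gene probes: 66 for alpha, 30 for beta, 10 for gamma, 8 for delta and 1 for the pre-T alpha chain, the partner of beta in immature thymocytes. Of these, 10 probes name a constant region, 101 a variable segment and 4 a chain as a whole. No member names a joining segment.

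RNA came from the liver of female NFS/sld mice in both groups. In the Tx group (4 arrays) the thymus was removed on day 3 after birth and the liver taken 8 weeks after surgery, an operation that gives this strain a disease like primary Sjögren's syndrome, in which autoimmunity damages exocrine glands. The nonTx group (4 arrays) consisted of mice that kept their thymus. The labels used here do not give the age of the nonTx mice, say whether they had a sham operation, or tie each array to 1 animal. The spread behind each p-value is that of these samples and may be technical. The comparison addresses how much receptor chain RNA the liver holds when the thymus has been missing since soon after birth.

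The T cell receptor is a dimer of either alpha and beta or gamma and delta chains, carried to the cell surface with the CD3 subunits and the zeta chain. Each chain is encoded by a gene assembled from variable and joining segments (and, in beta and delta, diversity segments) spliced to a constant region, and this assembly takes place mainly in the thymus. A constant-region probe therefore reads transcripts of many T cells, and a variable-segment probe those of the cells that chose that segment. The liver harbours conventional T cells, natural killer T cells with a nearly fixed alpha chain, and gamma-delta T cells.

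Whether a probe was well above background was taken from the scanner software's call. Correlations between arrays lay between 0.982 and 0.991. Signals were divided by each array's 75th percentile, which lay between 225.0 and 330.0 on Tx arrays and between 274.2 and 301.9 on nonTx arrays, and are given as scaled signal on a common 75th percentile of 270.0. After scaling, each of 10 spike-in RNAs was higher on Tx arrays, with log2 differences between 0.06 and 0.37. The 8 arrays shared 1 slide, on which the Tx arrays filled column 2 and the nonTx arrays column 1, so slide column and group cannot be told apart. The tissue label is borne out by the 8 hepatocyte genes listed, all tested, whose summed signal lay between 717884 and 822543 on Tx arrays and between 747884 and 815901 on nonTx arrays.

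Most receptor chain probes gave little signal in liver. Of the 115 members, 34 were well above background on at least 1 array, 16 on all 8 arrays and 81 on none. The number above background was 22, 22, 20 and 20 on the Tx arrays, against 23, 25, 26 and 24 on the nonTx arrays, so every Tx array had fewer than any nonTx array. Over all gene probes the share well above background was 55.5%, 52.5%, 52.1% and 51.1% on the Tx arrays, against 54.2%, 57.1%, 56.6% and 55.6% on the nonTx arrays, lower on 3 of 4 Tx arrays than on any nonTx array. The lowest scaled signal called well above background lay between 11.9 and 18.7 on Tx arrays and between 11.6 and 14.4 on nonTx arrays. The part of this array-wide difference in the members' counts was not tested. Testing required signal well above background on 3 of the 4 arrays of Tx or of nonTx, which 23 members had. Of these, 16 passed through both groups, 7 through nonTx alone and 0 through Tx alone, so the 23 lean towards members that are higher in nonTx.

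Constant regions of the beta and gamma chains lay lower in Tx liver, by about 1 unit on the log2 scale or more for most tested probes. Of the 3 tested gamma constant probes, only gamma constant 3 was well above background on all 8 arrays. Gamma constant 1 and 4 passed the filter through nonTx alone, which favours this direction. With normexp background correction, which compresses dim signals, the 7 tested constant probes differed by -0.79 to -0.14. The tested probes of alpha variable segments lay on both sides of 0, and the alpha constant region could not be tested. Across all 30955 tested probes, 0 passed a Benjamini-Hochberg adjusted p of 0.05 in limma (0% of probes; 4091 had an unadjusted p under 0.05), so no member passed either. The smallest adjusted p of a member was 0.152. Of the 23 tested members, 16 had a log2 difference below 0, beside 47.4% of all tested probes. At an unadjusted p under 0.05, 9 were lower in Tx, beside 6.02% of all tested probes, and 1 was higher, beside 7.19%. In 8 members every Tx array lay below every nonTx array, beside 3.38% of tested probes, and in 0 members every Tx array lay above, beside 4.48%. The 16 members well above background on all 8 arrays did not pass through a single group. Among them 7 (43.8%) were lower at an unadjusted p under 0.05, beside 5.11% of the 27051 probes above background on all 8 arrays, and 1 (6.25%) was higher, beside 7.97%. Their groups did not overlap in 6 (37.5%), all lower in Tx, beside 2.89% of those probes lower and 4.99% higher without overlap. The median log2 difference was -0.22 for these 16 members, against 0.04 for the 27051 probes. These counts include several probes for the same or nearly identical constant regions, which are not separate observations.

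The beta chain is shared by all alpha-beta T cells, and each rearranged beta gene uses 1 of 2 nearly identical constant regions. All 4 beta constant probes were well above background on all 8 arrays. For beta constant 2, probe A_52_P102846 gave a scaled signal of 174.3, 212.2, 174.7 and 260.0 on the Tx arrays, against 314.6, 389.6, 379.8 and 496.7 on the nonTx arrays. Every Tx array lay below every nonTx array, and the signal was 1.93-fold lower in Tx (log2 difference -0.95 ± 0.17, SE, 95% interval -1.32 to -0.57, limma adjusted p 0.152). The second probe for beta constant 2, A_51_P478172, gave 113.9, 150.7, 99.6 and 192.9 on the Tx arrays, against 235.3, 273.7, 263.1 and 334.8 on the nonTx arrays. Its groups did not overlap either, with a log2 difference of -1.03 ± 0.20 (limma adjusted p 0.179).

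Probe A_51_P210310 for beta constant region 1 read 153.2, 230.3, 147.1 and 241.1 on Tx arrays, against 268.8, 349.1, 291.6 and 414.0 on nonTx arrays, a log2 difference of -0.79 ± 0.20 (limma adjusted p 0.282). Probe A_55_P2744870, for the same region, read 35.1, 53.6, 36.1 and 57.4 on Tx arrays, against 71.7, 90.5, 83.3 and 110.6 on nonTx arrays, a log2 difference of -0.99 ± 0.21 (limma adjusted p 0.219). The groups were apart on both probes. Because the constant regions are near copies, hybridisation of one transcript to the other's probe cannot be separated here, and the 4 probes are best read as 1 measurement of beta chain RNA. With normexp background correction, which compresses dim signals, the difference of A_55_P2744870 was -0.45. In bulk liver RNA, fewer T cells and less receptor RNA per T cell cannot be told apart.

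**Figure D1:**
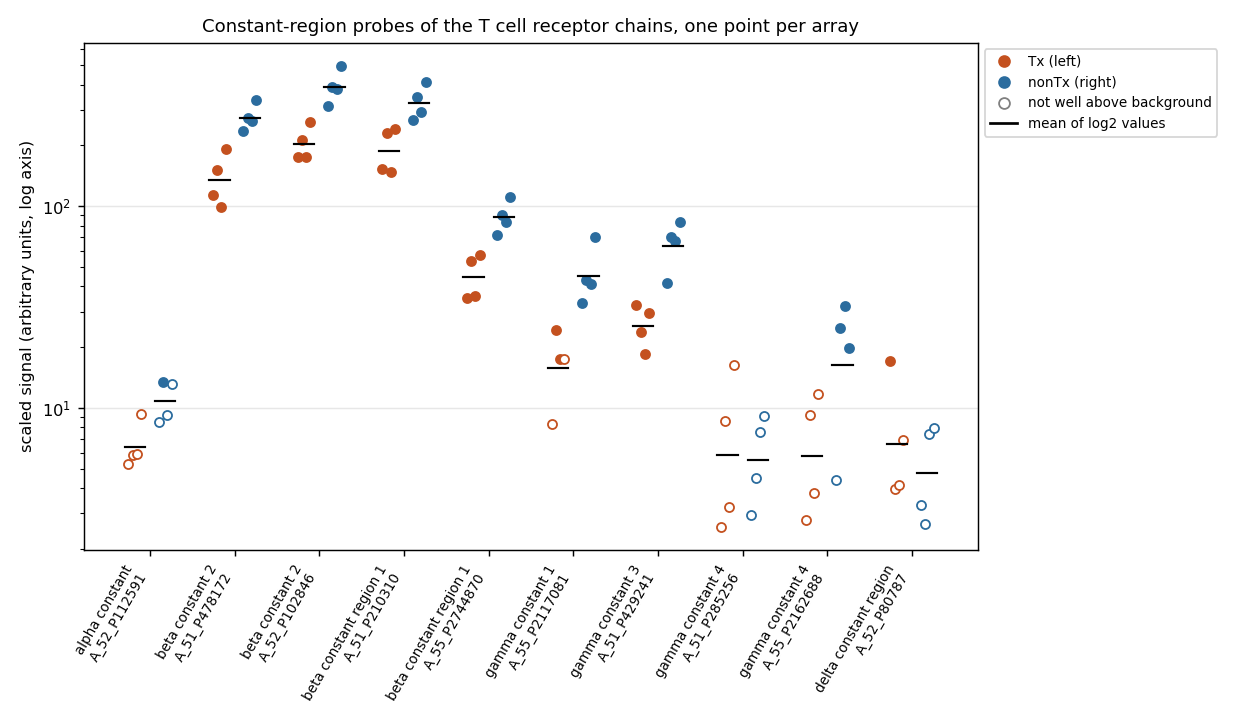
Scaled signal (arbitrary units, log axis) of the 10 constant-region probes on each of the 8 arrays, Tx (orange, left) and nonTx (blue, right); open points were not well above background and bars are means of the log2 values (n = 4 arrays per group). The 4 beta probes and gamma constant 1 and 3 show no overlap between Tx and nonTx, whereas the alpha and delta constant probes sit near background.

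The 4 beta constant probes moved together from array to array. As deviations from each probe's mean over the 8 arrays, their average was -0.74, -0.27, -0.79 and -0.07 on Tx replicates 1 to 4, against 0.19, 0.50, 0.38 and 0.80 on nonTx replicates 1 to 4. Tx replicate 4 thus came nearest to the nonTx arrays, and nonTx replicate 4 was the highest array on all 4 probes. The probes share RNA, array and nearly all of their target, so this describes how closely the probes repeat each other.

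Gamma constant regions, which are transcribed in gamma-delta T cells and also in some alpha-beta T cells, lay lower in Tx as well. Gamma constant 3 (A_51_P429241) was well above background on all 8 arrays and read 32.4, 23.8, 18.6 and 29.6 on Tx arrays, against 41.8, 70.0, 67.5 and 83.5 on nonTx arrays. The groups did not overlap, and the signal was 2.50-fold lower in Tx (log2 difference -1.32 ± 0.25, 95% interval -1.88 to -0.76, limma adjusted p 0.168). Gamma constant 1 (A_55_P2117081) read 8.35, 24.4, 17.5 and 17.5 on Tx arrays, of which 2 were well above background, against 33.3, 43.0, 41.4 and 70.0 on nonTx arrays, all above it. Its groups did not overlap either (log2 difference -1.51 ± 0.34, limma adjusted p 0.246).

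Gamma constant 4 has 2 probes that behaved differently. Probe A_55_P2162688 read 2.77, 9.26, 3.77 and 11.7 on Tx arrays, none well above background, against 4.38, 25.0, 32.1 and 19.8 on nonTx arrays, 3 of them above it. The groups overlapped, and the limma adjusted p was 0.383 (measured means 6.87 ± 4.29 in Tx and 20.3 ± 11.8 in nonTx, SD, n = 4). With Tx values raised to the lowest signal well above background on their array, the probe was 1.05-fold lower in Tx. This ratio of group means holds no sampling error. Probe A_51_P285256 was above background on 0 of the 8 arrays. The gamma constant genes are close relatives, so cross-hybridisation between them is possible and was not tested. With normexp, the gamma differences were -0.45 for constant 3, -0.38 for constant 1 and -0.14 for A_55_P2162688.

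The alpha constant region, common to all alpha chains, and the delta constant region could not be tested. The alpha constant probe (A_52_P112591) read 5.27, 5.82, 5.91 and 9.31 on Tx arrays, none well above background, against 8.49, 13.5, 9.23 and 13.1 on nonTx arrays, of which 1 was above it. Only Tx replicate 4 reached into the nonTx range. The delta constant probe (A_52_P80787) read 17.1, 3.98, 4.13 and 6.96 on Tx arrays, with replicate 1 above background, against 3.32, 2.65, 7.45 and 7.99 on nonTx arrays, none above it. The lower beta signal therefore has no readable counterpart at the alpha constant region on these arrays.

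Variable segments of the beta chain were readable for 3 of 25 probes, all of the 13 family. Beta variable 13-2 (A_55_P2120606) read 34.6, 34.4, 21.2 and 30.8 on Tx arrays, against 46.8, 52.4, 46.5 and 50.3 on nonTx arrays, with no overlap (log2 difference -0.72 ± 0.19, limma adjusted p 0.282). Beta variable 13-3 (A_66_P133189) read 9.15, 11.4, 11.2 and 9.51 on Tx arrays, none well above background, against 23.4, 19.4, 15.8 and 20.2 on nonTx arrays, all above it. With Tx values raised to the lowest signal well above background on their array, it was 1.26-fold lower in Tx. This ratio of group means holds no sampling error, and the probe passed the filter through nonTx alone. Its measured means were 10.3 ± 1.18 in Tx and 19.7 ± 3.13 in nonTx (SD, n = 4, limma adjusted p 0.282). Beta variable 13-1 (A_66_P107484), from 22.2 to 42.6 on Tx arrays and from 27.0 to 33.9 on nonTx arrays, had overlapping groups and a log2 difference of 0.03 ± 0.21 (95% interval -0.44 to 0.51). With normexp the differences of 13-2 and 13-3 were -0.19 and -0.03.

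**Figure D2:**
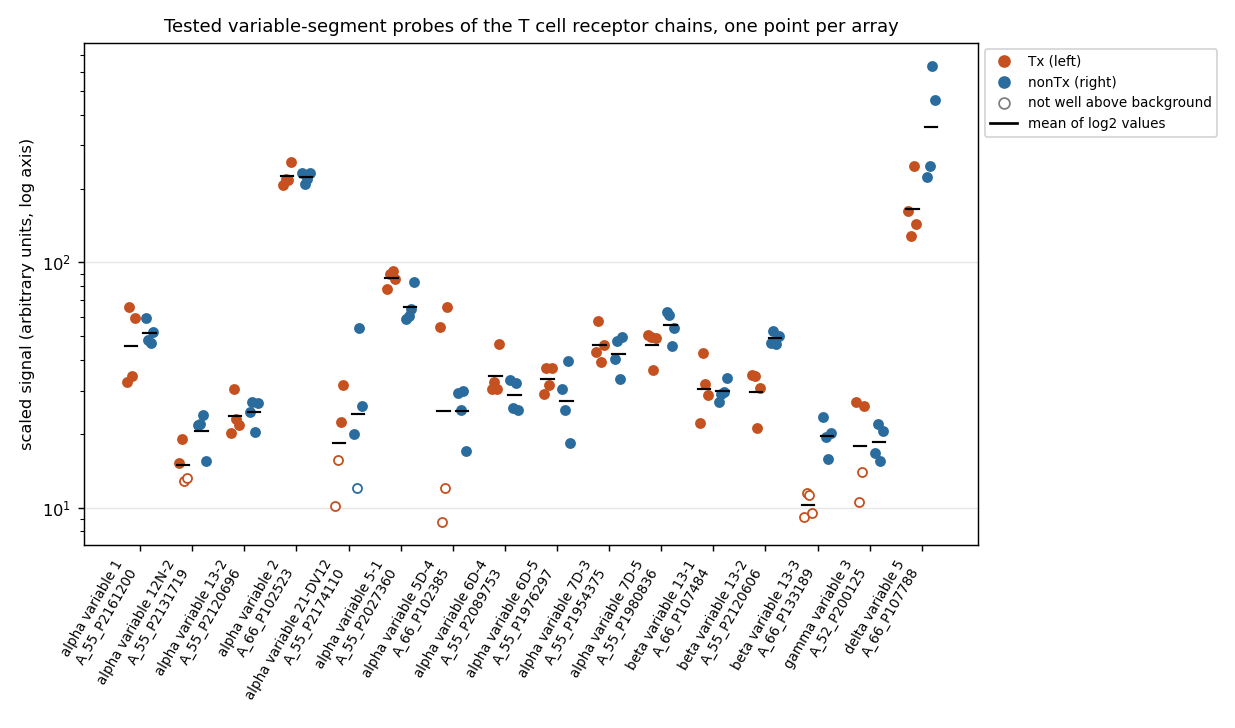
Scaled signal (arbitrary units, log axis) of the 16 tested variable-segment probes on each array, Tx (orange, left) and nonTx (blue, right); open points were not well above background and bars are means of the log2 values (n = 4 arrays per group). Beta variable 13-2 and 13-3 show no overlap, delta variable 5 is lower on all but 1 Tx array than any nonTx array, and the alpha segments overlap.

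Delta variable 5 was the single readable delta member, and its probe A_66_P107788 lay well above background on all 8 arrays. It read 161.6, 128.3, 246.4 and 143.0 on Tx arrays, against 222.5, 246.7, 635.2 and 458.9 on nonTx arrays. Tx replicate 3 reached the level of the 2 lower nonTx arrays, so the groups overlapped, and the log2 difference was -1.11 ± 0.33 (95% interval -1.86 to -0.37, limma adjusted p 0.296). A second probe for the same segment (A_55_P2162622) was not above background on any array, between 2.59 and 3.87 on Tx arrays and between 2.57 and 3.13 on nonTx arrays. The delta constant probe was above background on only 1 Tx array and 0 nonTx arrays. Whether A_66_P107788 reads delta chain RNA was not tested, so its difference is that of 1 probe. Gamma variable 3 (A_52_P200125), from 10.5 to 26.9 on Tx arrays and from 15.5 to 21.9 on nonTx arrays, gave -0.04 ± 0.33, with 2 Tx arrays above background.

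Of 64 alpha variable probes, 11 were tested, and 10 of these had an unadjusted p of 0.05 or more. Of the 11, 5 lay below 0 and 6 above, from -0.46 to 0.38 around a median of 0.00 on the log2 scale. Without scaling between arrays, 3 of those 6 (alpha variable 2, 5D-4 and 7D-3) also lay below 0. The lowest probes, at -0.46 and -0.40, and the median probe passed the filter through nonTx alone, each with 2 Tx arrays above background. Passing in this way favours lower differences. Among the 8 alpha variable probes above background on all 8 arrays, the lowest difference was -0.27. Alpha variable 5-1 (A_55_P2027360) was higher in Tx, at 77.8, 89.5, 91.9 and 85.5 on Tx arrays, against 58.9, 60.4, 64.3 and 83.3 on nonTx arrays. Only nonTx replicate 4 lay in the Tx range, and the log2 difference was 0.38 ± 0.14 (limma unadjusted p 0.0236, adjusted p 0.335). The unadjusted p was 0.05 or more in 5 of the 8 fits that left out 1 array, and the difference was 0.23 with normexp.

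Alpha variable 2 (A_66_P102523) gave the tightest comparison, between 207.1 and 256.1 on Tx arrays and between 208.9 and 231.3 on nonTx arrays, with a log2 difference of 0.01 ± 0.10 (95% interval -0.21 to 0.23). The alpha constant probe, for a region common to all alpha chains, had mean signals of only 6.58 in Tx and 11.1 in nonTx. Whether the brighter alpha variable probes read receptor transcripts was not tested, so their differences are those of the probes. At the low end, alpha variable 12N-2 (A_55_P2131719) read 15.1, 19.1, 12.8 and 13.2 on Tx arrays, against 21.7, 21.9, 23.8 and 15.5 on nonTx arrays, a difference of -0.46 ± 0.23 (limma adjusted p 0.412). Alpha variable 21-DV12 (A_55_P2174110), a segment that alpha and delta chains can both use, differed by -0.40 ± 0.48. Both 12N-2 and 21-DV12 passed the filter through nonTx alone, each with 2 Tx arrays above background. Alpha variable 7D-5 (A_55_P1980836) differed by -0.27 ± 0.17, alpha variable 1 (A_55_P2161200) by -0.17 ± 0.24 and alpha variable 13-2 (A_55_P2120696) by -0.05 ± 0.20.

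Above 0 lay alpha variable 6D-5 (A_55_P1976297) at 0.30 ± 0.24, alpha variable 6D-4 (A_55_P2089753) at 0.26 ± 0.20 and alpha variable 7D-3 (A_55_P1954375) at 0.13 ± 0.18. Alpha variable 5D-4 (A_66_P102385) differed by 0.00 ± 0.62 with a wide spread in Tx, at 54.3, 8.74, 11.99 and 65.8 on Tx arrays against 29.2, 25.1, 29.9 and 17.0 on nonTx arrays. It had 2 Tx arrays above background and passed the filter through nonTx alone. All 11 alpha groups overlapped between Tx and nonTx. Many alpha variable genes have near-identical copies, marked D and N in their names, so probes of this family may read more than 1 segment.

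**Figure D3:**
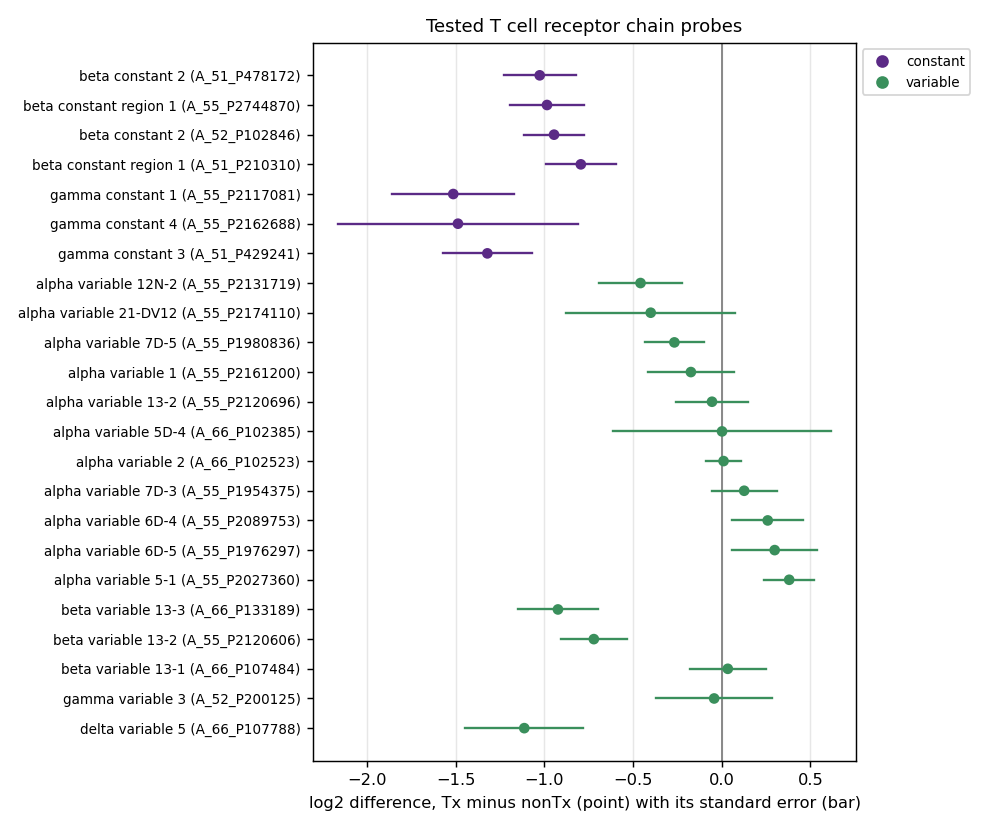
Log2 difference, Tx minus nonTx (points), with its standard error (bars) from limma for the 23 tested members, constant regions above and variable segments below (n = 4 arrays per group). The 7 constant probes lie between -1.51 and -0.79, gamma constant 1 and 4 with only 2 and 0 Tx arrays above background. The 11 alpha variable probes lie between -0.46 and 0.38, the lowest with only 2 Tx arrays above background.

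Among all 30955 tested probes, ordered from the lowest log2 difference (Tx minus nonTx), ranks are given only for members well above background on all 8 arrays. The 4 beta constant probes stood between the 1.29th and the 2.75th percentile and gamma constant 3 at the 0.423rd. Delta variable 5, whose second probe was never above background, stood at the 0.963rd and beta variable 13-2 at the 3.38th percentile. The 8 alpha variable probes measured on all arrays ran from the 16.1st (7D-5) to the 95.3rd (5-1).

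With 1 array left out, the unadjusted p stayed under 0.05 in all 8 fits for the 4 beta constant probes, gamma constant 3, beta variable 13-2 and delta variable 5, all measured on all 8 arrays. It also did so for gamma constant 1 and beta variable 13-3, but these passed the filter only through nonTx, with 2 and 0 Tx arrays above background, so their fits say little about stability. For gamma constant 4 (A_55_P2162688), which passed in the same way with 0 Tx arrays above background, it was 0.05 or more in 5 of 8 such fits. Without any scaling between arrays, the 4 beta constant probes differed by -1.18 to -0.95 and gamma constant 3 by -1.48. With normexp, the beta probes differed by -0.79 to -0.45 and gamma constant 3 by -0.45. Each of these had an unadjusted limma p under 0.05 in both settings. Gamma constant 1 and 4 (A_55_P2162688) differed by -1.67 and -1.64 without scaling, and by -0.38 and -0.14 with normexp. Passing the filter through nonTx alone favoured this direction for them. The unadjusted limma p of gamma constant 4 was 0.340 with normexp.

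Of the 92 members that did not pass the filter, 55 were alpha, 23 beta, 7 delta, 6 gamma and 1 the pre-T alpha chain, and their signal before scaling ran from 2.35 to 32.6. The probe with the highest mean signal among them was alpha variable 17 (A_55_P2150603) for alpha, with 1 Tx and 2 nonTx arrays above background. For beta it was beta variable 5 (A_55_P1986019), never above background, for gamma it was gamma variable 1 (A_55_P2162695), with 1 Tx and 2 nonTx arrays above background, and for delta the constant region described above. The pre-T alpha chain (A_51_P243575) read 10.9, 19.8, 4.32 and 12.3 on Tx arrays, against 14.5, 13.2, 19.5 and 9.98 on nonTx arrays, with 1 Tx and 2 nonTx arrays above background.

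The 81 members never above background carry no level and only show the floor of the arrays. Of these, 64 (79.0%) had a higher scaled signal in Tx, and their median log2 difference was 0.23, against 0.07 before scaling. All 21037 gene probes never above background behaved the same way, with 78.7% higher in Tx, and medians of 0.26 after and 0.10 before scaling. The scaled floor of the dimmest members thus lay slightly higher on Tx arrays, the opposite direction to that of the constant regions.

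The proteins that carry and signal for the receptor were examined as lists of named genes, each gene taken as its brightest tested probe. Over all tested probes, 47.4% had a log2 difference below 0. At an unadjusted limma p under 0.05, 6.02% were lower in Tx and 7.19% higher. Genes such as Cd8a, Lef1 and Klrb1c passed the filter through nonTx alone, so the list counts lean towards lower in Tx. Among the CD3 and zeta subunits and coreceptors, all 7 genes were tested, 4 were lower and 3 higher in Tx, and 2 were lower at an unadjusted p under 0.05. Cd3d, a CD3 subunit, read 98.4, 107.9, 79.1 and 118.6 on Tx arrays, against 238.7, 216.8, 199.5 and 248.5 on nonTx arrays. It was 2.25-fold lower with no overlap (log2 difference -1.17 ± 0.14, limma adjusted p 0.0589, shared by 5 probes as the smallest of all).

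Cd3g, another CD3 subunit, read 62.1, 70.2, 49.3 and 62.4 on Tx arrays, against 88.2, 116.1, 100.8 and 134.4 on nonTx arrays, also with no overlap (-0.84 ± 0.17, limma adjusted p 0.179). Cd3e, the remaining CD3 subunit, differed by 0.13 ± 0.12 and Cd247, the zeta chain, by 0.34 ± 0.26, with overlapping groups, and the second tested probe of each gave -0.03 and -0.09. The coreceptor Cd4 differed by 0.32 ± 0.18. The coreceptor genes of cytotoxic T cells differed by -0.46 ± 0.34 (Cd8a) and -0.30 ± 0.46 (Cd8b1), with overlapping groups. Cd8a was not well above background on any Tx array. The log2 differences of Cd3d and Cd3g were thus close in size to those of the beta constant probes. Those of Cd3e and Cd247 had the other sign at the brightest probe but not at the second tested probe. Without scaling between arrays, the brightest Cd3e probe gave -0.02. Cd4 is also transcribed in liver macrophages, so its probe does not read T cells alone.

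Of 16 genes of proximal signalling and the T cell surface, 11 were tested. Among these, 10 were lower in Tx, beside 47.4% of all tested probes, and 1 was higher. At an unadjusted p under 0.05, 7 were lower, beside 6.02%, including a gene that passed the filter through nonTx alone. The surface receptor Cd5 read 18.4, 22.8, 21.8 and 24.9 on Tx arrays, against 26.2, 35.6, 32.6 and 41.3 on nonTx arrays, with no overlap (-0.62 ± 0.20, limma adjusted p 0.31). The costimulatory receptor Cd28 differed by -0.61 ± 0.20 and the kinase Lck by -0.45 ± 0.15. Zap70, the kinase recruited to the zeta chain, was the 1 higher gene, at 0.69 ± 0.25 (limma unadjusted p 0.0194, adjusted p 0.326). Its unadjusted p was 0.0569 without Tx replicate 4. The second tested probe of Zap70 gave a log2 difference of 0.73. The mean scaled signal of Zap70 was 5352 in Tx and 3459 in nonTx, against 204.5 and 279.7 for Lck. Whether the Zap70 signal comes from T cells was not tested.

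Genes of alpha-beta and naive T cells were lower in 7 of the 8 tested out of 10, beside 47.4% of all tested probes. At an unadjusted p under 0.05, 5 were lower, beside 6.02%, including Lef1, which passed the filter through nonTx alone. Satb1, a chromatin organiser of developing T cells, read 18.7, 16.9, 17.9 and 22.7 on Tx arrays, against 39.6, 45.1, 36.1 and 41.8 on nonTx arrays, with no overlap (-1.10 ± 0.17, limma adjusted p 0.0974). The homing receptor Ccr7 differed by -0.81 ± 0.19 without overlap, the transcription factor Lef1 by -1.30 ± 0.37 with 1 Tx array above background, and the interleukin 7 receptor Il7r by -0.48 ± 0.20. The unadjusted limma p of Il7r was 0.05 or more in 5 of the 8 fits that left out 1 array, with the highest, 0.114, without nonTx replicate 4. With normexp the differences were -0.72 for Cd3d, -0.44 for Cd3g, -0.06 for Cd5, -0.07 for Cd28, -0.29 for Satb1, -0.44 for Ccr7 and -0.38 for Lef1.

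Of 13 genes of gamma-delta and innate-like T cells, 6 were tested, 2 were lower and 4 higher. Cxcr6, a chemokine receptor of liver-resident T and natural killer T cells, read 106.4, 185.7, 126.7 and 178.8 on Tx arrays, against 274.4, 288.0, 256.2 and 315.1 on nonTx arrays, with no overlap (-0.96 ± 0.18, limma adjusted p 0.168). Klrb1c, the NK1.1 antigen gene, differed by -0.68 ± 0.23, with 1 Tx array above background, and by -0.08 with normexp. Zbtb16, the transcription factor of natural killer T cells, was higher at 0.93 ± 0.38 (limma unadjusted p 0.0371, adjusted p 0.358), and its unadjusted p was 0.05 or more in 4 of the 8 fits that left out 1 array. The second tested probe of Zbtb16 gave a log2 difference of 1.27. The mean scaled signal of Zbtb16 at its brightest probe was 1198 in Tx and 553.2 in nonTx, and whether it comes from T cells was not tested. Sox13, a factor of gamma-delta T cells, differed by 0.19 ± 0.17. Of the 4 genes of receptor gene recombination and the precursor chain, only Dntt, which adds bases at the junctions, was tested. It read 419.1, 609.8, 540.5 and 462.4 on Tx arrays, against 473.0, 248.3, 102.9 and 208.6 on nonTx arrays, and was higher in Tx with overlap (1.17 ± 0.37, limma adjusted p 0.31). Rag1, Rag2 and Ptcra did not pass the filter, and whether the Dntt signal comes from T cells was not tested.

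**Figure D4:**
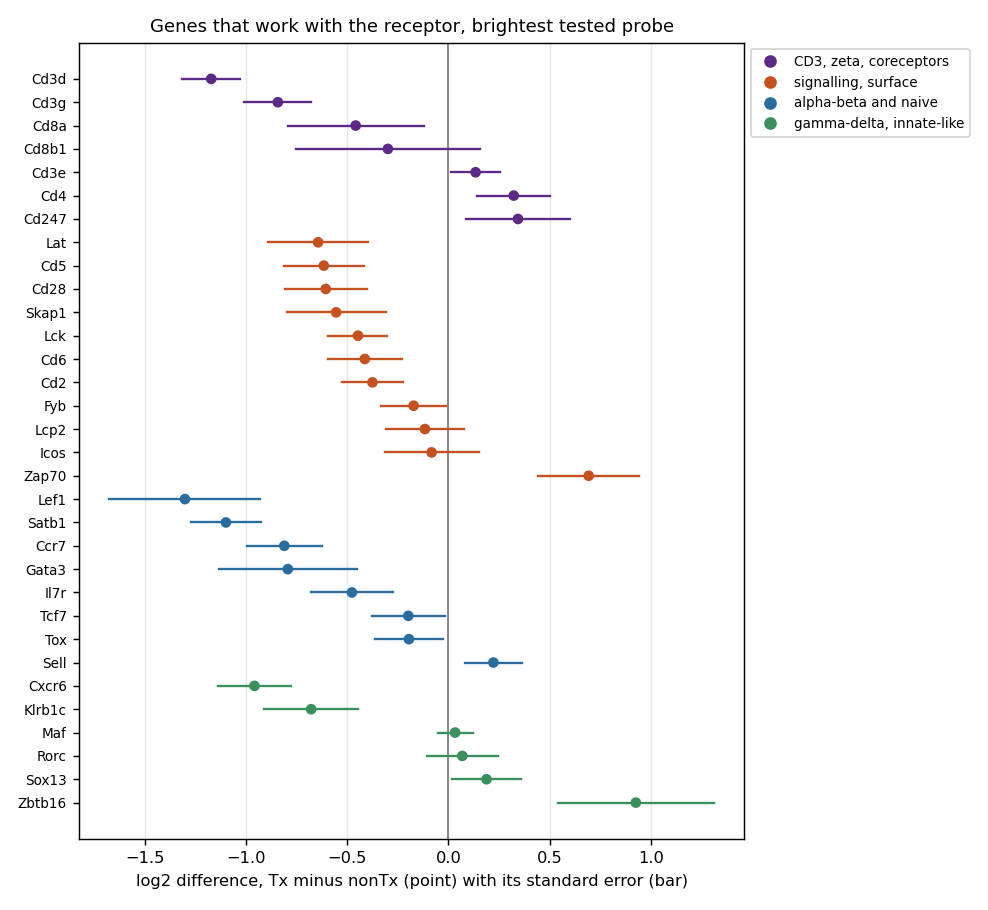
Log2 difference, Tx minus nonTx (points), with its standard error (bars) from limma for the tested genes of 4 lists around the receptor, each at its brightest tested probe (n = 4 arrays per group). Cd3d, Cd3g, Satb1, Ccr7 and Cxcr6 lie at -0.81 or below, as does Lef1 with only 1 Tx array above background, while Cd3e, Cd247, Cd4, Zap70 and Zbtb16 lie above 0.

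Markers of other cells in liver were counted in the same way, to be read beside the same shares of all tested probes. Of 8 tested natural killer cell genes, 5 were lower and 3 higher (2 lower at an unadjusted p under 0.05), with a summed signal of 1377 to 2708 on Tx arrays and 1217 to 3101 on nonTx arrays. Of 9 tested B cell genes, 4 were lower and 5 higher, with a summed signal of 1517 to 2224 on Tx arrays and 1586 to 1843 on nonTx arrays. With this scaling, Kupffer cell genes were higher in 7 of 8 (median log2 difference 0.05) and genes of neutrophils and monocytes in 6 of 8. At an unadjusted p under 0.05, 3 genes of neutrophils and monocytes were higher and 1 was lower. Of 5 exocrine pancreas genes, 2 were tested, and both were higher at their brightest probe. Their summed signal was 13996 to 20544 on Tx arrays and 7796 to 14405 on nonTx arrays. Most of this sum was 1 probe of Cela1, with means of 17002 in Tx and 11415 in nonTx. The other tested Cela1 probe gave a log2 difference of -0.18, and Ctrb1 had an unadjusted limma p of 0.189. The part of these cells in the receptor chain differences was not tested.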

How the data were processed

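Liver RNA of 8 samples (4 Tx, 4 nonTx) was labelled with Cy3 and read on 1-colour Agilent arrays. Per the file headers, the deposited intensity of each spot had its background subtracted and its spatial trend removed by Feature Extraction version 10.7.1.1. Version 9.1 stands in the submitters' processing notes. The authors' deposited log2 values were rebuilt within 0.0016 by scaling to the 75th percentile and centring each probe. Their direction is that of the intensities, and their medians were -0.12, 0.09, 0.05 and 0.15 for Tx and 0.03, -0.05, -0.06 and -0.07 for nonTx. They served as an alternative.

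Here, log2 of the intensity minus each array's 75th percentile was used. Spots flagged as outliers (54 to 120 per array) were set to missing, 0 were saturated, and spots of 1 probe were averaged. The test was limma 3.58.1 with a variance trend in R 4.3.3 (files were read with version 1.17.8 of the data.table package), with Benjamini-Hochberg adjustment over 30955 probes. Errors are standard errors of this fit unless given as SD. The method was tested on simulated data. The number of arrays limits the precision. Members and the 11 gene lists were chosen with earlier results of these data known. Named were all constant-region probes, all tested members, the untested probe of each chain with the highest mean signal, the 7 CD3, zeta and coreceptor genes, and at most 4 genes of each other T cell list by smallest p; 1 gene of these lists is not reported here. Members are named from probe descriptions, since only 5 of 115 carry a gene symbol. Neither coordinates nor sequences are given, since the build differs from that of the reference at hand. Alternatives covered background correction, scaling, filters, outlier spots, the variance trend, the replicate number as a block, and each array left out; no scaling, and the median signal for normexp, were chosen after seeing the data.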

Additional observations from a re-analysis of the deposited data

Results flagged for a closer look

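Of 46 groups of 4 arrays examined over the 23 tested members, 2 held an array far from the other 3, and chance alone flags about 1 group in 20. Alpha variable 6D-4 (A_55_P2089753) had a scaled signal of 46.5 on Tx replicate 4, where the other Tx arrays lay between 30.4 and 32.6. Alpha variable 7D-5 (A_55_P1980836) had a scaled signal of 36.5 on Tx replicate 3, where the other Tx arrays lay between 49.1 and 50.5.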

How the results depend on the processing

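No member passed an adjusted p of 0.05 in any of the 19 alternatives, with a smallest value of 0.0723 for beta constant 2 (A_52_P102846) without Tx replicate 2. The number of probes passing over all tested ones was 0, and became 2 with normexp, 6 with scaling to the median, and 1 each with the authors' log2 values, no variance trend, the replicate block and no scaling between arrays. With 1 array left out it lay between 0 and 188, with 188 reached without Tx replicate 2, where Cd3d, Satb1 and Cxcr6 were among those that passed; Cd3d also passed with scaling to the median. Members lower at an unadjusted p under 0.05 numbered 9, and 14 with no filter (9 to 11 with 1 array left out). Those higher numbered 1, and became 2 with normexp, 9 with no filter and 0 with no scaling (0 to 1 with 1 array left out, 0 without Tx replicate 2 or 3 or nonTx replicate 1, 2 or 3). The median over tested members, -0.40, was -0.041 with normexp, 0.20 with no filter (all 115 members, mostly at the array floor) and -0.56 with no scaling, and lay between -0.47 and -0.35 with 1 array left out. Tx and nonTx arrays of the same replicate number shared a slide row. Correlations of same-numbered arrays were 0.045, 0.081, 0.099 and -0.011, and 1 of 4 Tx arrays correlated best with its own number. So few pairs cannot decide whether the numbers pair the samples. The replicate block moved the lower members to 10.

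The single differences that changed sign with normexp were alpha variable 12N-2 (0.048), alpha variable 13-2 (0.10), gamma variable 3 (0.11), Cd8a (0.017) and Cd8b1 (0.093). Those with quantile normalization were alpha variable 13-2 (0.044) and gamma variable 3 (0.068), and with scaling to the median the same pair (0.046 and 0.058). Those with no scaling were alpha variable 2 (-0.15), alpha variable 5D-4 (-0.16), alpha variable 7D-3 (-0.031), beta variable 13-1 (-0.12) and Cd3e (-0.023). With 1 array left out, alpha variable 13-2 ran from -0.18 to 0.021, alpha variable 5D-4 from -0.47 to 0.50, alpha variable 2 from -0.054 to 0.048, beta variable 13-1 from -0.13 to 0.19, gamma variable 3 from -0.24 to 0.21 and Cd8b1 from -0.57 to 0.18. The cause was not tested, except that normexp adds an offset of 50, which by construction shrinks differences of dim probes. Scaling to the median moved the median difference of all tested probes to 0.12, and no scaling to -0.14, against 0.01. All arrays lay on 1 slide, so the slide as a block was not run. Members below background have no measured level.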

Other observations

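Another 12 probes name a receptor chain only through their gene name or lack the words of the rule, and were left out of the counts above. One of them, A_55_P2345631 (Tcrg-V1, gamma variable 1), read 15.8, 30.8, 13.6 and 28.1 on Tx arrays, against 42.2, 41.1, 35.7 and 44.8 on nonTx arrays. The groups did not overlap, and the log2 difference was -0.98 ± 0.28 (limma adjusted p 0.29), or -0.25 with normexp. The member probe for gamma variable 1 (A_55_P2162695) was too dim to test, so the probes of this segment cannot be compared. A probe described as T cell receptor gamma without a region (A_66_P109968) read from 79.1 to 99.2 on Tx arrays and from 73.5 to 99.5 on nonTx arrays, a difference of 0.03 ± 0.14, unlike the gamma constant probes. These probes were chosen after their values were seen.

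Beta variable 21 (A_55_P1952838) was above background on 2 Tx arrays and 0 nonTx arrays, with 26.7, 29.8, 3.41 and 4.01 on Tx arrays, against 3.05, 2.42, 3.70 and 2.57 on nonTx arrays. Alpha variable 3D-3 (A_55_P2028904), alpha variable 4D-4 (A_52_P364327) and alpha variable 9D-1 (A_55_P2101413) each stood out on 1 Tx array, at 25.3 on replicate 2, 36.4 on replicate 3 and 26.1 on replicate 2, while their other Tx arrays lay at 8.99 or below and their nonTx arrays at 3.49 or below. These too were chosen after their values were seen and were not tested.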
